A study of Homo sapiens with 12 samples.

Results

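Human embryonic kidney cells of the Flp-In T-REx 293 line were sequenced in a study of PGC-1α, a coactivator of genes for mitochondria and energy metabolism, and 6 of its 12 libraries hold cytoplasmic RNA. These 6 libraries, 3 of WT-res and 3 of ΔRS-res, fall into a high state (WT-res replicates 1 and 3, ΔRS-res replicate 3) and a low state (WT-res replicate 2, ΔRS-res replicates 1 and 2), each state being present in both lines. The libraries were chosen by expression values measured in them, those of stress genes with ASNS, NUPR1, DDIT3 and ALDH1L2 as markers. All differences between the states in cytoplasmic RNA are therefore given as descriptions, without a test. In both lines doxycycline at 1 µg/ml for 6 days induced both miRNAs that deplete endogenous PGC-1α and a PGC-1α that these miRNAs do not target, full length in WT-res and without the serine/arginine-rich (RS) domain in ΔRS-res. Each line was made from selected colonies after Flp recombination. All samples were described as grown in the same medium and taken from consecutive passages. Hypotonic lysis of 6 wells combined gave each cytoplasmic sample, and each whole-cell sample came from 1 well. Libraries were depleted of ribosomal RNA, and the counts of the cytoplasmic libraries totalled from 92.0 to 144.6 M (1e6 counts).

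Of the 12 libraries, 1 went against its label. DDX19B, a gene that separates the lines, stood at 12.6 and 13.2 CPM (counts per 1e6 counts of the effective library size) in WT-res whole-cell replicates 1 and 2 and at 0.20 CPM in that labelled replicate 3, beside 0.23 to 0.26 CPM in ΔRS-res. That library was left out of the whole-cell test and its values are given under its label. The 6 cytoplasmic libraries matched their lines, with DDX19B between 13.6 and 14.8 CPM in WT-res and between 0.28 and 0.35 CPM in ΔRS-res. Every pair of libraries of the same fraction differed by more than counting noise. Of 8 genes known from this cell line, all passed the count minimum but only 5 had a mean of at least 5 CPM in cytoplasmic RNA. Among these 5, VIM (vimentin) stood at 968 to 1023 CPM, the keratin KRT8 at up to 176 CPM and the neurofilament NEFL at 226 to 361 CPM. Of the 8 genes, 1 lay above in the high state and 1 below without overlap, beside 17.7% and 17.6% of all genes. Of 10 markers of blood, endothelial, liver and fibroblast cells, 5 were under the count minimum. Of the other 5, COL1A1 had at most 6.34 CPM and ALB, COL3A1 and PECAM1 at most 0.121, 0.0976 and 0.105 CPM, all overlapping between the states. CD68, a lysosomal protein abundant in macrophages, had 3.20, 3.19 and 3.27 CPM in the high-state libraries and 1.72, 1.59 and 1.94 CPM in the low-state libraries, without overlap, and its part in the results was not tested.

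Cells that lack an amino acid, or whose endoplasmic reticulum (ER) or mitochondria are impaired, phosphorylate the initiation factor eIF2α, which lowers translation in general and raises translation of the transcription factor ATF4. ATF4, with C/EBP partners, then activates genes for amino acid synthesis and uptake, tRNA charging and stress signalling, through a composite site known as the C/EBP-ATF response element (CARE). Heat shock genes answer a different signal, unfolded protein in the cytosol, through HSF1 and the heat shock element, and ER chaperones answer another through ATF6 and XBP1. The genes followed here belong to these programmes and to their metabolic neighbours. They fall into 28 lists, and 6 further lists were formed after the values had been seen.

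The following promoter stretches are shown because ASNS is a marker of the division and CHAC1, CEBPG and JDP2 belong to the ATF4 list, and they show where letters of the ATF4 motif lie in each. Sequences are from RefSeq (GRCh38.p14), 5′ to 3′ in the direction of the gene, with the letters of the CARE motif TGATGNAA in capitals. The ASNS stretch is chr7:97872444-97872501 (minus strand), with the motif 68 bases before the start listed for it in RefSeq. Gene spans given below are from another annotation, GENCODE, and for ASNS and HSPA8 they reach past the RefSeq start and hold these stretches. That of CHAC1 is chr15:40953237-40953294 (plus strand, motif on the opposite strand), that of CEBPG is chr19:33374046-33374103 (plus strand) and that of JDP2 is chr14:75427981-75428021 (plus strand).
ASNS: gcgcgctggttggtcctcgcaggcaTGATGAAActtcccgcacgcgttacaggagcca
CHAC1: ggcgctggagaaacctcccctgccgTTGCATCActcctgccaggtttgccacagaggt
CEBPG: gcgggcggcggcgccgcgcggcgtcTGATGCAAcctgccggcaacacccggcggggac
JDP2: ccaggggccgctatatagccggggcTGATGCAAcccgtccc

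Searched on both strands from 250 bases before to 50 bases after each start, these letters were held by 1270 of 35116 promoters (3.62%). Counted by gene, they were found for 5 of the 18 genes of the ATF4 list that matched the table, 7 of 16 genes of the cytosolic aminoacyl-tRNA synthetase list, 6 of 12 of the amino acid transporter list, 3 of 9 of the list of other amino acid synthesis and 1 of 7 of the serine, glycine and one-carbon list, beside 1217 of all 27305 genes (4.46%). Of the 41 matched genes that were higher in the high state by more than 1 log2 unit at a mean of at least 5 CPM, only the marker ASNS held them (2.44%). Heat shock genes are shown for the opposite direction. Their motif, the heat shock element written as TTC, NN, GAA, NN and TTC in 1 run, was present in 172 of the 35116 promoters (0.49%). Counted by gene, it was found for 5 of the 12 genes of the heat shock list, beside 166 of all 27305 genes (0.608%). HSPA8 held it at chr11:123062329-123062386 and, closer to its RefSeq start, at chr11:123062154-123062216 (both minus strand). HSP90AA1 held it at chr14:102087095-102087157 (minus strand). The motif is again in capitals, and in the first HSPA8 stretch it lies on the opposite strand.
HSPA8, far: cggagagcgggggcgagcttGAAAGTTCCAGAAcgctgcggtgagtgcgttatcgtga
HSPA8, near: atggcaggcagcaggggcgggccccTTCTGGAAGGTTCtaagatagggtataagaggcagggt
HSP90AA1: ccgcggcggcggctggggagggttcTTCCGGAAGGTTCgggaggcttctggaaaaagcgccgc

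The markers set the scale of the division. ASNS, which makes asparagine from aspartate and glutamine (ENSG00000070669, chromosome 7, 97851677 to 97872542 of GRCh38), had 405, 224 and 448 CPM in WT-res cytoplasmic replicates 1, 2 and 3 and 243, 243 and 566 CPM in those of ΔRS-res. The 3 high-state libraries lay above the 3 low-state libraries, and ΔRS-res replicate 3 was highest. DDIT3, the stress transcription factor CHOP, had 34.4, 17.9 and 38.8 CPM in WT-res and 16.7, 18.3 and 38.1 CPM in ΔRS-res. ALDH1L2, the mitochondrial enzyme that oxidises formyl-tetrahydrofolate, had 13.98, 4.75 and 15.3 CPM in WT-res and 7.38, 8.49 and 27.2 CPM in ΔRS-res. The states did not overlap for either gene. NUPR1, a small chromatin-associated stress protein, was low throughout, with 2.86, 1.02 and 3.54 CPM in WT-res and 1.36, 1.37 and 4.50 CPM in ΔRS-res. The fitted differences between the states with line as a covariate, on the log2 scale, were 1.07, 1.08, 1.71 and 1.69 in the order named, and each had the same sign within both lines.

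**Figure D1:**
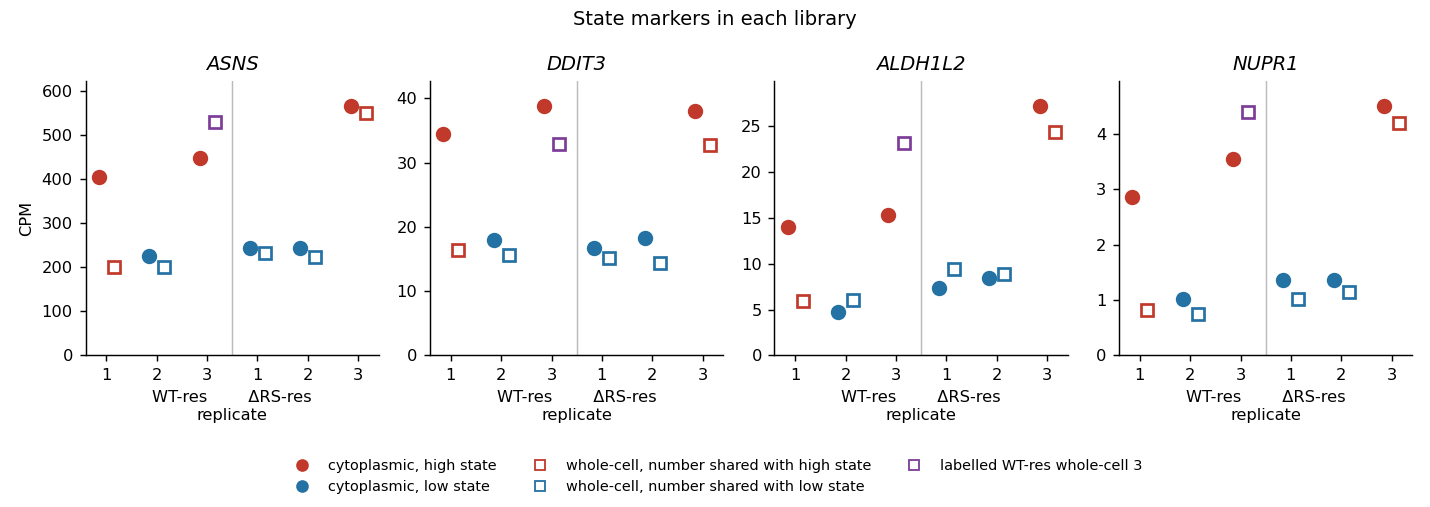
CPM of the 4 marker genes (y axis, from 0) in each replicate of WT-res and ΔRS-res (x axis), filled circles for cytoplasmic and open squares for whole-cell libraries, coloured by the state of the cytoplasmic library with the same line and number and in purple for the whole-cell library labelled WT-res replicate 3. The open square of WT-res replicate 1 lies at the level of the low state in all 4 panels, for example at 200.4 CPM of ASNS beside 405 CPM in the cytoplasmic library.

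A gene was counted as higher or lower when its fitted difference exceeded 1 log2 unit and had the same sign within both lines. Of 25949 genes 994 (3.83%) were higher and 1082 (4.17%) lower, most of them at low counts. Among the 11148 genes with a mean of at least 5 CPM, 54 (0.484%) were higher and only 10 (0.0897%) lower. All 3 high-state libraries lay above all 3 low-state libraries for 4605 of the 25949 genes (17.7%) and below them for 4574 (17.6%), or for 23.1% and 24.5% of the better expressed genes. Just inside the limit lay KIF17 and UBE2QL1 with 1.00 log2 unit each, and just outside it IMMP2L with 0.996 and RNY3 with -0.989.

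The ATF4 list, which holds the markers NUPR1 and DDIT3, had a median difference of 0.75 log2 units, beside -0.0082 over all genes and 0.0024 over the better expressed ones. All 20 members had a positive difference. Of these, 17 lay above without overlap (beside 17.7% of all genes) and 6 were higher by the limit of 1 (beside 3.83%). These 6 were NUPR1, DDIT3, TRIB3, JDP2, FGF21 and ADM2. Without the 2 markers the median over 18 genes was 0.72, with 15 above without overlap and 4 higher by the limit. TRIB3, a pseudokinase that restrains AKT and ATF4 signalling, had 55.5, 56.4 and 81.5 CPM in the high-state libraries (WT-res 1, WT-res 3 and ΔRS-res 3) and 29.5, 34.1 and 34.4 CPM in the low-state libraries (WT-res 2, ΔRS-res 1 and ΔRS-res 2). JDP2, a repressor of the AP-1 family, had 3.80, 3.92 and 4.52 CPM and 2.26, 1.90 and 1.88 CPM in the same orders. FGF21, a secreted starvation hormone, and ADM2, a peptide of the adrenomedullin family, had at most 0.378 and 0.0357 CPM, so their differences of 1.53 and 1.37 rest on few counts.

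Among the regulators, ATF4 itself had 773, 825 and 824 CPM in the high state and 683, 637 and 669 CPM in the low state, a difference of 0.28. The groups did not overlap, with 773 CPM in the lowest high-state and 683 CPM in the highest low-state library. CEBPG, a dimer partner of ATF4, had 505, 534 and 536 CPM against 315, 303 and 308 CPM, and CEBPB differed by 0.69. ATF3 and ATF5, transcription factors of the same response, and PPP1R15A, which returns eIF2α to its unphosphorylated form, overlapped between the states, with differences of 0.18, 0.24 and 0.21. ATF3 was ordered by line more than by state, with 86.7, 78.0 and 92.5 CPM in WT-res and 61.3, 57.4 and 66.7 CPM in ΔRS-res. Among further targets, CHAC1, which degrades glutathione, had 6.88, 6.88 and 7.58 CPM in the high state and 4.01, 3.70 and 3.81 CPM in the low state. EIF4EBP1, a translation repressor under mTOR, had 156, 167 and 175 CPM against 100.2, 98.7 and 103 CPM. DDIT4 and SESN2, inhibitors of mTOR complex 1, differed by 0.79 and 0.35 log2 units, and the secreted factors STC2 and GDF15 by 0.63 and 0.53. These genes, and others below from lists with few members past the limit, were named after their values had been seen.

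Enzymes that make amino acids followed, in a graded way. Of the 13 enzymes in the list of other amino acid synthesis, 12 had a positive difference and 8 lay above without overlap (beside 23.1% of the better expressed genes), with a median of 0.34. The marker ASNS is among them, and without it 11 of 12 had a positive difference, 7 lay above and the median was 0.33. ASS1, the argininosuccinate synthase of arginine synthesis (chromosome 9, 130444961 to 130501274), had 199, 88.4 and 216 CPM in WT-res and 70.4, 79.0 and 209 CPM in ΔRS-res, a difference of 1.36, larger than that of ASNS. CTH, which makes cysteine from cystathionine, had 35.4, 36.2 and 35.6 CPM in the high state and 21.4, 19.5 and 19.3 CPM in the low state, and GPT2 and PYCR1, of alanine and proline synthesis, differed by 0.54 and 0.52. By contrast GOT2 and ALDH18A1, of aspartate and proline metabolism, overlapped, with differences of -0.091 and 0.023.

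Of 11 enzymes of serine, glycine and one-carbon metabolism 7 lay above without overlap and 1 below (beside 23.1% and 24.5% of the better expressed genes). Without the marker ALDH1L2 these were 6 and 1 of 10, with a median of 0.23. Values differed between compartments and steps of the pathway. The serine synthesis enzymes PHGDH, PSAT1 and PSPH differed by 0.53, 0.44 and 0.29, and the mitochondrial folate enzymes SHMT2, MTHFD2 and MTHFD1L by 0.38, 0.52 and 0.17, beside 1.71 for ALDH1L2. Their cytosolic counterparts SHMT1 and MTHFD1 differed by -0.026 and -0.037, and TYMS, the thymidylate synthase, by -0.13. PHGDH, for example, had 298, 308 and 347 CPM in the high state and 222, 227 and 226 CPM in the low state, whereas MTHFD1 had 394, 415 and 447 CPM and 435, 430.4 and 443 CPM, which overlapped.

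Amino acid transporters differed unevenly. Of 14 transporters 13 passed the count minimum. Of these, 4 lay above and 2 below without overlap, beside 23.1% and 24.5% of the better expressed genes. Their median was 0.11, or 0.028 without ΔRS-res replicate 3. SLC6A9, a glycine transporter, had 10.2, 10.1 and 11.9 CPM against 5.90, 6.06 and 5.42 CPM, and SLC43A1, a transporter of large neutral amino acids, 8.03, 7.88 and 8.83 CPM against 5.14, 5.02 and 5.27 CPM. SLC7A11, the cystine exchanger, overlapped, and was ordered by line as well, with 34.7, 27.8 and 34.2 CPM in WT-res and 22.9, 21.6 and 27.5 CPM in ΔRS-res. SLC7A5 and SLC3A2, which form 1 exchanger of large neutral amino acids, differed by 0.13 and -0.088.

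Of 20 cytosolic aminoacyl-tRNA synthetases, which load amino acids onto tRNAs, 12 lay above without overlap and 3 below (beside 23.1% and 24.5%). The median of the 20 was 0.18, or 0.10 without ΔRS-res replicate 3. The largest differences belonged to YARS1, SARS1 and AARS1, at 0.45, 0.44 and 0.38. SARS1, of serine, had 236, 239 and 237 CPM in the high state and 181, 170.3 and 169 CPM in the low state. In the opposite direction RARS1, HARS1 and FARSA, of arginine, histidine and phenylalanine, differed by -0.53, -0.42 and -0.24, and RARS1 had 140.1, 152 and 132 CPM against 207, 192 and 193 CPM. The 17 mitochondrial synthetases had a median of -0.053. Of these, 1 lay above and 4 below without overlap, beside 23.1% and 24.5% of the better expressed genes.

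Ranked by the smaller of the differences within the 2 lines, the 12 better expressed genes at the top were ALDH1L2, ASNSP1, ZC3H6, RAPGEF3, ASS1, AKNA, ARRDC4, PADI2, EBF4, FAM131C, NT5M and RPS6KA2. ASNSP1 is a pseudogene of ASNS whose counts (10.8, 11.4 and 10.3 CPM against 4.02, 3.28 and 3.62 CPM) may share reads with its parent. ZC3H6, a CCCH zinc finger protein, had 42.1, 14.1 and 47.4 CPM in WT-res and 18.7, 18.4 and 48.0 CPM in ΔRS-res. RAPGEF3, the cAMP-responsive exchange factor EPAC1, had 12.0, 10.1 and 11.5 CPM in the high state and 4.03, 3.16 and 2.44 CPM in the low state. ARRDC4, an arrestin-domain protein regulated by the glucose-sensing factor MondoA, had 102, 116 and 135 CPM against 46.8, 53.6 and 52.9 CPM. Its relative TXNIP, named after its values were seen, had 33.8, 38.1 and 42.6 CPM against 21.2, 22.9 and 20.9 CPM, while ARRDC2 and ARRDC3 overlapped.

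At the other end of this ranking stood 2 annotated copies of the U3 small nucleolar RNA, ETV5, HEXIM1, LINC01963, MAP1A, ETV1, ADI1, the unnamed genes ENSG00000272655 and ENSG00000279348, SRSF6 and ZNF225-AS1. ETV5 and ETV1 are ETS factors that follow ERK signalling. ETV5 had 20.2, 40.7 and 18.3 CPM in WT-res and 40.3, 39.1 and 19.4 CPM in ΔRS-res, and the states did not overlap. HEXIM1, an inhibitor of the elongation kinase P-TEFb, had 21.5, 17.9 and 19.9 CPM in the high state and 39.7, 41.7 and 38.6 CPM in the low state. ADI1, of methionine salvage, had 32.2, 34.4 and 28.5 CPM against 60.8, 53.1 and 57.2 CPM. The U3 genes are near-identical copies, so counts of a single copy are uncertain, and 1 copy of SNORD3D was at 0 in WT-res replicates 1 and 3 and between 0.0214 and 61.6 CPM elsewhere. Over the 4 other U3 genes all 4 lay below in the cytoplasm, with SNORD3A at 634, 448 and 419 CPM against 827, 1028 and 784 CPM.

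**Figure D2:**
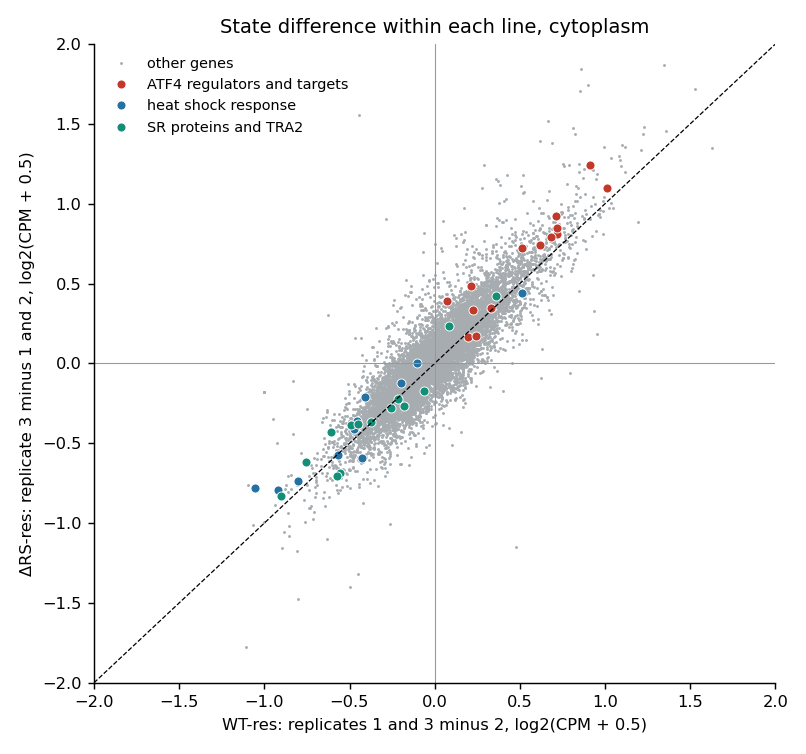
State difference in cytoplasmic RNA on the log2(CPM + 0.5) scale within WT-res (x axis, replicates 1 and 3 minus replicate 2) and within ΔRS-res (y axis, replicate 3 minus replicates 1 and 2) for 11147 genes with a mean of at least 5 CPM, with 1 gene outside the axes. Genes of the ATF4 list (red) lie in the upper right and most heat shock (blue) and SR protein (green) genes in the lower left, near the diagonal.

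The differences within the lines ran together across genes, with a Pearson correlation of 0.877 over 11148 genes, which are not independent, in libraries that the division itself had chosen. WT-res replicates 1 and 3 differed from each other with an SD of 0.186 log2 units across these genes and from replicate 2 with 0.275 and 0.258. For ΔRS-res, replicates 1 and 2 differed with an SD of 0.138 and replicate 3 from them with 0.276 and 0.281.

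Protein folding genes lay in the opposite direction to the ATF4 list. Of 12 heat shock genes 8 were below without overlap and 1 above, beside 24.5% and 23.1% of the better expressed genes. Their median of -0.48 was the lowest among the 28 lists. HSPA8, the constitutive cytosolic HSP70 whose promoter holds the motif at 2 places (chromosome 11, 123057489 to 123063230), had 647, 1406 and 707 CPM in WT-res and 1246, 1321 and 747 CPM in ΔRS-res, a difference of -0.92. Its J-domain partner DNAJA1 had 147, 159 and 147 CPM in the high state and 289, 255 and 255 CPM in the low state, and HSPH1, its nucleotide exchange factor, 150.4, 156 and 132 CPM against 268, 226 and 215 CPM. The HSP90 genes HSP90AA1 and HSP90AB1 differed by -0.57 and -0.41, and the inducible HSPA1B by -0.44. HSPA1A was low, with at most 2.81 CPM, and HSPA1A and HSPA1B are near-identical genes between which reads may be divided. HSPB1, a small heat shock protein, lay in the other direction, with 30.5, 29.2 and 33.8 CPM against 20.8, 24.6 and 25.0 CPM, and the co-chaperone BAG3 overlapped.

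Of 21 genes of ER chaperones and the unfolded protein response 12 were below without overlap and 3 above (beside 24.5% and 23.1% of the better expressed genes). The median of the 21 genes was -0.36. The chaperones HSPA5, CALR and SDF2L1 differed by -0.68, -0.59 and -0.74. CALR, for example, had 67.3, 95.6 and 59.4 CPM in WT-res and 100.2, 95.9 and 65.8 CPM in ΔRS-res. The 3 above were ERN1, the sensor IRE1, XBP1, its target, and HERPUD1, at 0.47, 0.30 and 0.40. HSPA5 stood at 15.4 to 29.5 CPM in cytoplasmic and 206 to 372 CPM in whole-cell libraries. Among 13 antioxidant targets of NRF2 6 were below without overlap and 0 above (beside 24.5% and 23.1%), with a median of -0.23. PRDX1, a peroxiredoxin, had 375, 416 and 388 CPM against 591, 581 and 632 CPM and GCLM, of glutathione synthesis, 61.5, 69.6 and 64.9 CPM against 95.7, 85.2 and 86.1 CPM. SLC7A11, which is on this list too, had a positive difference.

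Some further groups were formed after the values had been seen. Beside the counts that follow, 24.5% of the better expressed genes were below without overlap and 23.1% above. Of 14 SR proteins and TRA2 splicing factors 12 were below without overlap and 1 above, with a median of -0.39. SRSF6 had 156, 303 and 168 CPM in WT-res and 266, 272 and 151 CPM in ΔRS-res, SRSF2 191, 191 and 200.2 CPM in the high state against 322, 309.9 and 304 CPM in the low state, and only SRSF12 lay above. Of 17 subunits of the V-ATPase, the proton pump of lysosomes, 15 were below and 0 above, with a median of -0.31, and ATP6V0D1 had 18.8, 18.3 and 17.5 CPM against 31.3, 31.3 and 29.9 CPM. Of 13 output genes of ERK signalling 9 were below and 3 above. SPRY4, an inhibitor of the pathway, differed by -0.49 whereas DUSP4, a phosphatase of the pathway, differed by 0.36. Of 17 genes of mRNA export 6 were below and 0 above, beside 24.5% below and 23.1% above among the better expressed genes. NXF1, the main mRNA export receptor and a partner of PGC-1α in this study, had 56.2, 81.7 and 56.7 CPM in WT-res and 77.3, 73.3 and 51.2 CPM in ΔRS-res, a difference of -0.54. In bulk RNA, fewer cells with a transcript and less of it per cell cannot be told apart, for these and for all other genes.

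Most other programmes had medians near that of all genes. The median was 0.045 for 78 cytosolic ribosomal protein genes, and became -0.060 without WT-res replicate 2 and -0.026 without WT-res replicate 3. It was -0.038 for glycolysis, -0.13 for cholesterol synthesis, 0.045 for mitosis and -0.10 for S phase and DNA replication. For 36 subunits of complex I the median was -0.12. Of these subunits 11 were below without overlap and 0 above, beside 24.5% and 23.1% of the better expressed genes. Single genes within such lists differed more, and the pro-apoptotic p53 target BAX had 15.6, 16.2 and 17.6 CPM in the high state against 26.9, 33.2 and 33.7 CPM in the low state, MYC 176, 196 and 144 CPM against 128, 94.8 and 100.3 CPM and PDK1, a hypoxia-induced kinase, 83.1, 89.4 and 102 CPM against 57.3, 62.9 and 67.9 CPM. The lists of lysosome and autophagy and of nuclear-retained RNAs had medians of -0.24 each. Over their 17 and 6 better expressed members the medians were -0.0265 and -0.115. Replication-dependent histones had a median of -0.044. Hypoxia, YAP, p53, immediate early and fatty acid synthesis genes had medians between 0.016 and 0.081. Members of these lists past the limit were ANGPTL4, FOSB, H2BC14 and H3C3 on the lower side and NT5E on the higher side. FOSB, an immediate early transcription factor, had 2.69, 2.37 and 2.18 CPM against 4.58, 5.04 and 4.76 CPM. All 13 mitochondrially encoded mRNAs had a positive difference, with a median of 0.54, but none was without overlap. In whole-cell RNA the fitted median was -0.19. There 6 of the 13 were lower at an unadjusted p under 0.05 by edgeR and 0 higher, beside 4.08% and 6.00% of all genes. The median difference was -0.26 between WT-res whole-cell replicates 1 and 2 and -0.082 between ΔRS-res replicate 3 and its other replicates. It was 0.081 between the library labelled WT-res replicate 3, whose DDX19B level goes against its label, and WT-res replicate 2. In cytoplasmic RNA MT-CO1 had 889, 305 and 234 CPM in WT-res and 537, 300.4 and 734 CPM in ΔRS-res, so that WT-res replicate 3 was the lowest of all although it is a high-state library. Mitochondrial genes held 0.328, 0.129 and 0.092% of the counts in WT-res and 0.185, 0.129 and 0.248% in ΔRS-res.

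Among genes that PGC-1α is known to coactivate, and its own family, 3 of 12 lay above and 3 below, with a median of -0.0038. These counts are near the shares over the better expressed genes, 23.1% above and 24.5% below. PPARGC1A, counted from the introduced and endogenous copies together, had 652, 538 and 624 CPM in WT-res and 291, 287 and 385 CPM in ΔRS-res, which was a difference between lines more than between states. ESRRA, the orphan receptor through which PGC-1α acts on many genes, had 39.2, 35.9 and 47.3 CPM against 30.2, 34.0 and 32.5 CPM. TFAM and TFB2M, factors of mitochondrial DNA and its transcription, lay below, at -0.28 and -0.49.

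Transcript length and base composition were compared with the difference over the 11119 better expressed genes with an annotated sequence. In the cytoplasm it correlated with length (Spearman 0.189 across genes) and hardly with GC content (0.040). The median of genes of like length or of like GC content was then subtracted. The list medians became -0.42 and -0.46 for the 11 better expressed heat shock genes, beside -0.44 without subtraction. For the 14 better expressed genes of the ATF4 list they became 0.68 and 0.65, beside 0.66 without subtraction. MALAT1, a nuclear RNA, stood at 1705, 968 and 1081 CPM in WT-res and 1129, 994 and 1472 CPM in ΔRS-res and overlapped between the states. Its part in the results, and that of the mitochondrial share, was not tested.

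Whole-cell libraries were not used for the division, and each was placed by the line and replicate number that it shares with a cytoplasmic library. ASNS had 200.4, 200.4 and 529.9 CPM in the libraries labelled WT-res whole-cell replicates 1, 2 and 3 and 233, 223 and 550.4 CPM in ΔRS-res replicates 1, 2 and 3. DDIT3 had 16.3, 15.7 and 32.9 CPM in the libraries labelled WT-res 1, 2 and 3 and 15.2, 14.4 and 32.8 CPM in ΔRS-res. WT-res replicate 1, high in the cytoplasm, was thus at the level of replicate 2 in whole-cell RNA, whereas ΔRS-res replicate 3 was high in both fractions. HSPA8 followed the reverse order, with 1227, 1268 and 805 CPM in the libraries labelled WT-res and 1271, 1248 and 851 CPM in ΔRS-res. The library labelled WT-res replicate 3 stood with ΔRS-res replicate 3 in these genes.

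The same order was found for the ATF4, heat shock and ER chaperone lists. For the 20 genes of the ATF4 list the median difference on the log2(CPM + 0.5) scale was 0.036 between WT-res whole-cell replicates 1 and 2, 0.64 between ΔRS-res replicate 3 and its other replicates, and 0.60 between the library labelled WT-res replicate 3 and WT-res replicate 2. For the 12 heat shock genes these medians were -0.013, -0.39 and -0.70, and for the 21 genes of ER chaperones -0.0013, -0.24 and -0.34. Other lists differed from this order, and for the 13 mitochondrially encoded mRNAs the medians were -0.26, -0.082 and 0.081. The third median of each list sets a library with the DDX19B level of ΔRS-res against a WT-res library. Line and state cannot be told apart in that difference. The deviations of a line's replicates from their mean correlated between the fractions at 0.387, 0.359 and 0.734 for ΔRS-res replicates 1, 2 and 3, and at -0.139, 0.496 and 0.429 for the libraries labelled WT-res 1, 2 and 3, across 11148 genes.

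The state difference was tested in the 5 whole-cell libraries other than that labelled WT-res replicate 3, with line as a covariate. The libraries come from passages of the same lines, so p-values measure the spread between these samples. None of 26762 genes (0%) reached an adjusted p under 0.05 by the quasi-likelihood test of edgeR, adjusted by the Benjamini-Hochberg method. At an unadjusted p under 0.05 there were 2696 genes (10.1%), 1605 (6.00%) of them higher and 1091 (4.08%) lower, and DESeq2 called 64 of 14309 genes (0.447%) at an adjusted p under 0.05. For the markers the log2 differences and standard errors were 0.75 ± 0.25 for ASNS, 0.70 ± 0.22 for DDIT3, 0.86 ± 0.29 for ALDH1L2 and 1.31 ± 0.37 for NUPR1, each with an adjusted p of 0.491 by edgeR. At an unadjusted p under 0.05, 14 of the 20 genes of the ATF4 list (12 of 18 without the markers) were higher and 0 lower, 7 of 13 of other amino acid synthesis (6 of 12 without ASNS) higher, 6 of 20 cytosolic synthetases higher and 1 lower, 5 of 12 heat shock genes lower and 1 higher and 4 of 21 genes of ER chaperones lower and 1 higher. Among the heat shock genes HSP90AA1 had the smallest p, with 1998, 2731 and 1899 CPM in the libraries labelled WT-res and 1589, 1819.9 and 1133 CPM in ΔRS-res, a log2 difference of -0.53 ± 0.085 (adjusted p = 0.491 by edgeR).

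The count of called genes changed with the libraries left out. Without WT-res whole-cell replicate 1 edgeR called 1012 of 26823 genes at an adjusted p under 0.05, with an adjusted p of 0.0434 for each of the 4 markers, and the difference for ASNS was 1.27. Without WT-res replicate 2 it called 0 of 26600 genes, with an adjusted p of 0.145 for each marker, and the difference for ASNS was 1.25. In both fits the remaining WT-res replicate stands alone in its line, and the comparison is of ΔRS-res replicate 3 with ΔRS-res replicates 1 and 2. The same comparison fitted on the ΔRS-res libraries alone called 0 genes at an adjusted p and 6438 at an unadjusted one, with an adjusted p of 0.148 for each marker by edgeR. Without ΔRS-res replicate 3 the difference for ASNS was 0.00046. Without ΔRS-res replicate 2 the test called 14 genes. The genes at an unadjusted p under 0.05 numbered 7478 without WT-res replicate 1, 6462 without WT-res replicate 2, 1560 without ΔRS-res replicate 1 and 1125 without ΔRS-res replicate 2. The interaction, the state difference in ΔRS-res minus that in WT-res, was 1.27 log2 units for ASNS. It was positive for 18 of the 20 genes of the ATF4 list and 1 of the 12 heat shock genes. Only low-state ΔRS-res holds more than 1 library in this fit, so only sizes and signs are given. WT-res replicate 1 is placed as high in it, although its markers stood at the level of WT-res replicate 2.

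Same-numbered whole-cell libraries of the lines deviated together, with that labelled WT-res replicate 3 included. With the number as a block and all 6 libraries edgeR again called 0 genes. The genes at an unadjusted p under 0.05 then numbered 959, beside 2684 for the 6 libraries without the block, and the difference for ASNS was -0.11 in place of 1.07. Only number 1 holds libraries of both states, so the blocked difference rests on WT-res and ΔRS-res replicate 1. In whole-cell RNA the state difference also correlated with GC content (Spearman 0.42 across 11119 genes), beside 0.040 in the cytoplasm.

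**Figure D3:**
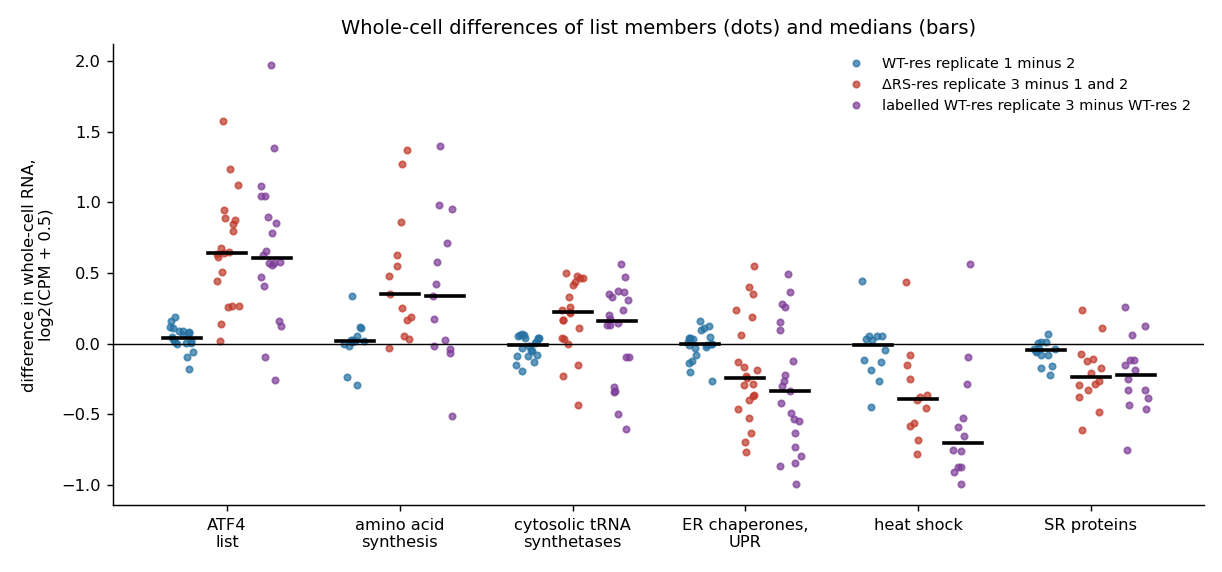
Differences in whole-cell RNA on the log2(CPM + 0.5) scale (y axis) for members of 6 gene lists (x axis), between WT-res replicates 1 and 2 (blue), between ΔRS-res replicate 3 and the mean of replicates 1 and 2 (red) and between the library labelled WT-res replicate 3 and WT-res replicate 2 (purple), with medians as bars. For the ATF4 list the medians are 0.036, 0.64 and 0.60. The purple difference sets a library with the DDX19B level of ΔRS-res against a WT-res library.

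In the cytoplasm the state crosses the comparison of the lines for which the libraries were made. The study kept WT-res replicates 1 and 3 and ΔRS-res replicates 1 and 2 for its cytoplasmic comparison. Both kept WT-res libraries are of the high state and both kept ΔRS-res libraries of the low state, so that line and state cannot be told apart in these 4 libraries. ASNS differed by -0.81 log2 units (ΔRS-res minus WT-res) in the kept libraries, by 0.41 within the high state and by 0.11 within the low state. ASS1 differed by -1.47, 0.0079 and -0.24 in the same order, HSPA8 by 0.92, 0.14 and -0.13 and NXF1 by 0.41, -0.14 and -0.12. PPARGC1A, the engineered gene, differed by -1.14, -0.73 and -0.90.

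All 20 genes of the ATF4 list were lower in ΔRS-res in the kept libraries, with a median of -0.59. Within the high state 3 of the 20 were lower (median 0.13) and within the low state 9 of the 20 (median 0.017). Heat shock genes had medians of 0.26, -0.089 and -0.17 in the same order, SR proteins and TRA2 0.42, -0.008 and -0.024 and V-ATPase subunits 0.30, -0.085 and -0.026. For the 11148 better expressed genes the medians were 0.012, 0.034 and -0.0068, and 5322, 4672 and 5818 of them were lower in ΔRS-res. The comparisons share libraries, those within the high state the WT-res and those within the low state the ΔRS-res libraries of the kept set, and within a state a line has as few as 1 library, so no test was made. The states were divided by stress genes in these same libraries, and the ATF4 list holds the markers NUPR1 and DDIT3. Smaller line differences within a state therefore follow in part from the division and are not separate evidence.

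**Figure D4:**
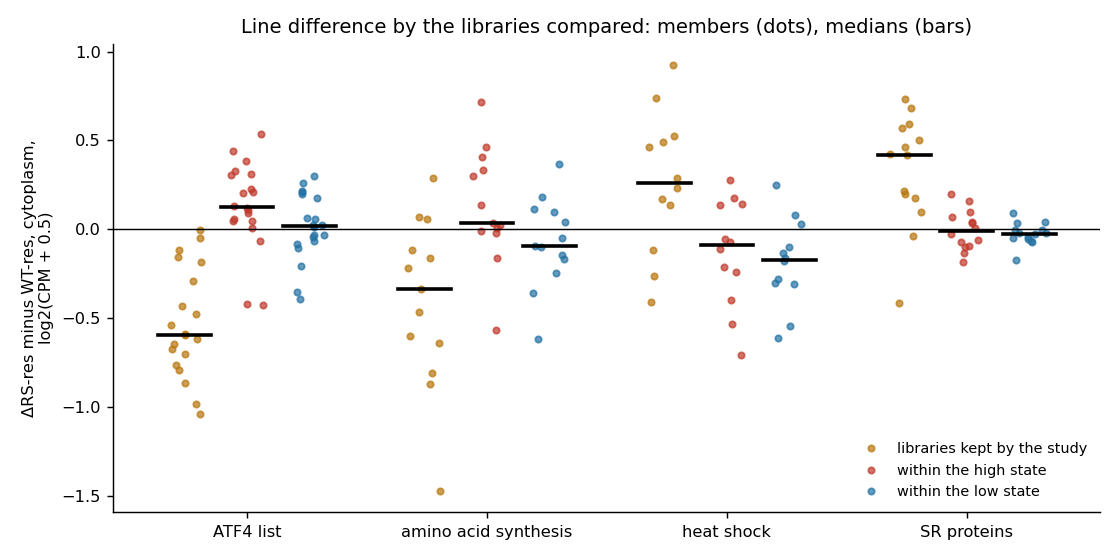
ΔRS-res minus WT-res in cytoplasmic RNA on the log2(CPM + 0.5) scale (y axis) for members of 4 gene lists (x axis), in the 4 libraries kept by the study (orange), within the high state (red) and within the low state (blue), with medians as bars. The ATF4 list has medians of -0.59, 0.13 and 0.017.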

How the data were processed

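RNA of HEK Flp-In cells was measured in 6 cytoplasmic and 6 whole-cell libraries. The authors made the deposited expected counts per transcript with the nf-core/rnaseq pipeline (Trim Galore, STAR and RSEM, human genome GRCh38), and tool versions are not given in the sources used here. The sums of expected counts per gene were rounded and fitted in edgeR 4.0.16 (R 4.3.3) within each fraction, with TMM normalization, a mean rounded count above 2, state and line as terms. CPM use TMM effective library sizes, and 0.5 was added where CPM were put on a log2 scale. DESeq2 1.42.0 served as an alternative. Scripts were tested on simulated data.

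The division into states, the gene lists and the lists' members were chosen with earlier results of these data known. A cytoplasmic gene counted as higher or lower with a fitted log2 difference over 1 and the same sign in both lines. Named genes were the markers, list members past that limit (at most 6 per list), the 12 genes per direction with the largest value of the smaller within-line difference at a mean of at least 5 CPM, and, in whole-cell RNA, the 10 called genes per direction with the smallest p, of which there were 0. Other genes were chosen after their values were seen. Unused columns numbered 0.

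Same-numbered libraries of the lines, taken from consecutive passages, correlated in their deviations from the line means at 0.441, 0.419 and 0.622 in whole-cell RNA and at -0.289, 0.546 and 0.439 in the cytoplasm, so that the numbers were taken to pair the whole-cell libraries only. Alternatives were other size factors, filters, covariates, tools and units, the replicate block, and each library left out. Counts totalled 92.0 to 144.6 M (1e6) in cytoplasmic and 90.3 to 122.0 M in whole-cell libraries, and every pair of libraries within a fraction differed by more than counting noise.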

Additional observations from a re-analysis of the deposited data

Results flagged for a closer look

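The whole-cell library labelled WT-res replicate 3 was outside the whole-cell comparison because its DDX19B level goes against its label, and the 4 marker genes stood in it above the 4 other whole-cell libraries apart from ΔRS-res replicate 3. ASNS had 529.9 CPM there, beside at most 233 CPM in those 4. NUPR1 had 4.38 CPM beside at most 1.14, DDIT3 32.9 CPM beside at most 16.3 and ALDH1L2 23.1 CPM beside at most 9.42. In ΔRS-res whole-cell replicate 3 the same genes had 550.4, 4.20, 32.8 and 24.3 CPM. No label gives another line or passage for this library, and what it holds was not tested further.

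ALDH1L2 had 5.98 CPM in WT-res whole-cell replicate 1 and 6.00 CPM in replicate 2, a difference of -0.0183 CPM that is near 0, and 9.43, 8.83 and 24.3 CPM in ΔRS-res replicates 1, 2 and 3. It was listed because the sign within WT-res is negative and that within ΔRS-res positive. On the log2(CPM + 0.5) scale the differences were -0.0041 in WT-res and 1.37 in ΔRS-res. The interaction, the state difference in ΔRS-res minus that in WT-res, was 1.42 log2 units. Only its size is given, because WT-res has 1 library per state in that fit. Groups of 3 libraries were not examined for single outlying samples.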

How the results depend on the processing

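The cytoplasmic counts depended on the filter on low counts. Without it 2095 genes were higher and 2495 lower of 38634, with the filter of edgeR's filterByExpr 567 and 443 of 21458, and with transcripts in place of genes 10884 and 10844 of 124558. With each library left out in turn, 944 to 1739 genes were higher and 1002 to 2073 lower, and among those with a mean of at least 5 CPM 33 to 79 and 8 to 17. The lowest count of these higher genes, 33, came without ΔRS-res replicate 3 and the highest count of lower genes, 17, without WT-res replicate 2. List medians tracked over the alternatives kept their sign, apart from cytosolic ribosomal proteins. Without ΔRS-res replicate 3 the medians of amino acid transporters, cytosolic synthetases and one-carbon enzymes were 0.028, 0.10 and 0.18. The values of lists without the markers were computed after the data were seen.

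In whole-cell RNA DESeq2 called 64 genes where edgeR called 0. Leaving out 1 library gave 0 to 1012 genes at an adjusted and 1125 to 7478 at an unadjusted p under 0.05 by edgeR. Without the line as a covariate 499 genes had an unadjusted p under 0.05, and in the ΔRS-res libraries alone 6438. The differences of the markers with 1 library left out ran from 0.00046 to 1.27 for ASNS, 0.15 to 1.96 for NUPR1, 0.060 to 1.15 for DDIT3 and -0.0041 to 1.41 for ALDH1L2, whose lowest value, without ΔRS-res replicate 3, turned the direction. Each fit that leaves 1 library in a line assumes that it varies like the others.

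With the replicate block the cytoplasmic counts were 1536 genes higher, 113 of them with a mean of at least 5 CPM. Deviations of same-numbered cytoplasmic libraries correlated for numbers 2 and 3 (0.546 and 0.439) but not for number 1 (-0.289). Both cytoplasmic libraries numbered 2 are of the low state and both numbered 3 of the high state, so number and state cannot be told apart there. In whole-cell RNA the replicate block gave 959 genes at an unadjusted p under 0.05 and turned the direction of ASNS (-0.11), NUPR1 (-0.060) and ALDH1L2 (-0.35), each with an adjusted p of 1 by edgeR. The cause was not tested, and only replicate number 1 holds both states. With 3 libraries per state, low genes such as FGF21 and ADM2 are limited by their counts.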
